A study of Mus musculus with 12 samples.

Results

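Open chromatin around 10 genes of canonical Wnt signalling was described in embryoid bodies with and without the forkhead factor Foxk1. The genes were the targets Axin2, Sp5, Myc, Ccnd1 and Cdx1, the DNA-binding effectors Lef1, Tcf7, Tcf7l1 and Tcf7l2, and Ctnnb1, which encodes β-catenin. A summit, the single base at which the authors' peak caller placed the top of an ATAC-seq peak, was taken for a gene when the nearest end of a protein-coding gene, within 100 kb, was an end of that gene, or when the summit lay inside its body. This gave 459 of 386209 summits over 12 libraries. Summits within 250 bp of each other were merged, which left 133 regions of 104822.

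Wnt ligands act by sparing β-catenin from a destruction complex built around Axin proteins. Stabilised β-catenin enters the nucleus and binds proteins of the Tcf/Lef family, which sit on DNA and otherwise recruit Groucho/TLE corepressors. In mouse embryonic stem cells this pathway is known for its part in forming the primitive streak and mesoderm, and Axin2, Sp5 and Cdx1 are among its known direct targets.

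The libraries came from mouse embryonic stem cells taken through a mesodermal protocol to day 3, 5 or 10, with 2 libraries in each of 6 groups. All 12 carry the description NoDox. Foxk1 knockout (KO) cells were sampled at days 3, 5 and 10. The control was the iHA-Foxk1 line at days 3 and 5, and at day 10 a pair of libraries with the label Control. KO and control of days 3 and 5 are therefore also different cell lines, and line and genotype cannot be told apart. The deleted allele and the number of clones are not given in the sources used here. Embryonic fibroblast feeders had been removed by a plating step before differentiation.

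On chromosomes 1 to 19 and X, the 4 KO lists of days 3 and 5 held 42129 to 59006 summits. The control lists held 53473 and 54100 at day 3 but 14519 and 34040 at day 5, and the 4 lists of day 10 held 4028 to 10548. Read depth is unknown, since the lists carry no counts. Both KO lists labelled day 5 hold peak names tagged D7, and the day behind every value from this pair is therefore uncertain. Since peak names at day 10 also lack the duplicate-removal tag of the other lists, the effects of day 10 and of processing cannot be told apart. Summits near 4 streak and nascent mesoderm genes were found for 4 of 4 genes in 7 of the 8 libraries of days 3 and 5, for 1 gene in control day 5 replicate 1, and for 0 in the day 10 libraries. For 5 fibroblast genes the count was 3 to 5 at days 3 and 5 and 0 at day 10. Other marker groups were found as widely. At days 3 and 5 the counts were 1 to 5 of 5 pluripotent genes and 3 to 5 of 5 cardiac progenitor genes. They were 2 to 3 of 4 endothelial and blood, 1 to 3 of 3 neural and 1 to 2 of 2 endoderm genes. At day 10 pluripotent and cardiac progenitor genes had 1 to 2 each. The counts therefore do not tell cell types apart. Whether these marker counts bear on the member values was not tested. Foxk1 itself had 8 and 10 summits in the KO and 9 and 9 in the control at day 3 among equal numbers of best summits, which does not check the label, since a summit near a gene does not measure whether the gene is intact.

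Promoter sequence was available for 7 of the 10 members, in 13 windows of RefSeq (GRCm38.p6). The 250 bases before the start are shown for 4 of them, Axin2 and Tcf7l2 for their differing regions, Lef1 for a promoter open in all 8 libraries of days 3 and 5, and Sp5 for its motif. In Axin2, Lef1 and Tcf7l2 capitals mark the span over which the libraries of days 3 to 10 placed their summits inside the stretch. In Sp5 capitals mark a Tcf/Lef motif, CTTTGAT.
Axin2 (chr11:108920099-108920348, plus strand): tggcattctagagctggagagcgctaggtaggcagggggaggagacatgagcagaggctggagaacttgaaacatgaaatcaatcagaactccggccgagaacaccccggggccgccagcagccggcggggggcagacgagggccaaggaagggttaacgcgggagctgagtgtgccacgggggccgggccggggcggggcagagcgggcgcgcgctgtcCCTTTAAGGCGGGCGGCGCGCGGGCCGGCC
Sp5 (chr2:70474673-70474922, plus strand): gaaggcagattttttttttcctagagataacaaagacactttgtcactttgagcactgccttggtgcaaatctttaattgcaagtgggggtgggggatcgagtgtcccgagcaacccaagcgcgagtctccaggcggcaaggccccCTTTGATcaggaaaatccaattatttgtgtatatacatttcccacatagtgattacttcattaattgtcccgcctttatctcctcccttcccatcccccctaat
Lef1 (chr3:131110047-131110296, plus strand): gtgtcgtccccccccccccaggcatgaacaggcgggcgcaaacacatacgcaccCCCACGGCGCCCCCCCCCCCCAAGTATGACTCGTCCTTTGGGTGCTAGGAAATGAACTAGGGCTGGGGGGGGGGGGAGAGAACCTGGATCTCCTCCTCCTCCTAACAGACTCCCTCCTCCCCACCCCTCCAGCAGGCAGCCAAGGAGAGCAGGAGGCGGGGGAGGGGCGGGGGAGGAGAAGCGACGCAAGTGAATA
Tcf7l2 (chr19:55741560-55741809, plus strand): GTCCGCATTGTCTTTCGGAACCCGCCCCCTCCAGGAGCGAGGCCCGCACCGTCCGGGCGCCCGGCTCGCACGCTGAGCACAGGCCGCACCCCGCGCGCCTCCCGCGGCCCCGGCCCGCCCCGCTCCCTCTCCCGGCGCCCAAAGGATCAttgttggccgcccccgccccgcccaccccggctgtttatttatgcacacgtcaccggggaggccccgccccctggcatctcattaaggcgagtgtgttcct
A pair of Tcf/Lef motifs and 1 forkhead motif were searched on both strands of the whole windows, which run from 250 bases before to 50 after each start, and no 2 matches overlapped in a member. The Tcf/Lef motif CTTTGAT was found in 1 of 13 member windows, that of Sp5, with its first base at -104, and in 3.73% of all 32851 windows. The other Tcf/Lef motif, CTTTGAA, was found in 0 of 13 member windows and in 5.14% of all. The forkhead motif TGTTTAC was found in 1 of 13, at the downstream Tcf7 start, and in 3.65% of all. The member stretches held 40.8% to 76% G and C, against a median of 52.4% over all windows, and 5 to 43 CpG dinucleotides against a median of 6.

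The 133 member regions were spread unevenly, with 25 at Tcf7l2, 22 each at Axin2 and Lef1, 21 at Tcf7l1, 15 at Myc, 9 at Ccnd1, 6 each at Tcf7 and Sp5, 4 at Ctnnb1 and 3 at Cdx1. Of these, 18 (13.5%) lay at most 1 kb from a gene end, 51 (38.3%) deeper in a body and 64 (48.1%) elsewhere, beside 17.1%, 36% and 46.9% of all regions. A summit in a single library made up 33.8% of member regions and 34.3% of all. A summit in all 8 libraries of days 3 and 5 was found for 9 member regions (6.77%, against 10.1% of all regions). These 9 were 2 each at Axin2, Lef1 and Tcf7l1 and 1 each at Tcf7l2, Myc and Ccnd1. Only 9 member regions had a summit at day 10, where Lef1, Tcf7, Sp5, Ccnd1 and Cdx1 had 0 in the 4 libraries.

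Between genotypes, the largest differences at day 3 included distal regions upstream of Axin2 and Tcf7l2, where summits of the control were missing or ranked lower in the KO. Distal regions of Myc and Lef1 differed the other way, by about as much as the shared Axin2 regions. At day 5, 1 upstream Axin2 region was again control-only. The day 3 order of the regions at -10504 bp and -9223 bp of Axin2 and -41284 bp of Tcf7l2 was not seen then. Promoter or gene-end regions at day 3 stood nearer the top in the control at Axin2, Lef1, Ccnd1 and Cdx1, nearer the top in the KO at Tcf7l1, and overlapped at Tcf7l2, Sp5, Myc and Ctnnb1. Of all regions found in the 4 day 3 lists, 24.5% stood nearer the top in the control and 25.8% in the KO. The Ccnd1 places nearly met. At day 5 the Lef1 promoter overlapped, the Tcf7l1 order turned and Axin2 kept its order. No member passed the test of summit number. To compare genotypes, the best-scoring N summits of each library were kept, with N set by the shortest list of the day (53456 at day 3, 14519 at day 5 and 4028 at day 10). Members held 61 and 66 such summits in the KO and 65 and 74 in the control at day 3, 63.5 ± 3.54 against 69.5 ± 6.36 (SD, n = 2). At day 5 they held 11 and 11 against 12 and 14, and at day 10 they held 2 and 3 against 1 and 1. The groups did not overlap in number at day 5 or day 10, by 1 summit each, and overlapped at day 3. Over full lists, which differ in length, both orders were reversed. Members then held 57 and 50 summits in the KO against 12 and 47 in the control at day 5, and 2 and 3 against 8 and 7 at day 10. The share of other gene sets with such an order is not given, so it is not a result about the members. With 2 libraries against 2, no permutation p inside a day can fall under 0.33, and none was computed.

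**Figure D1:**
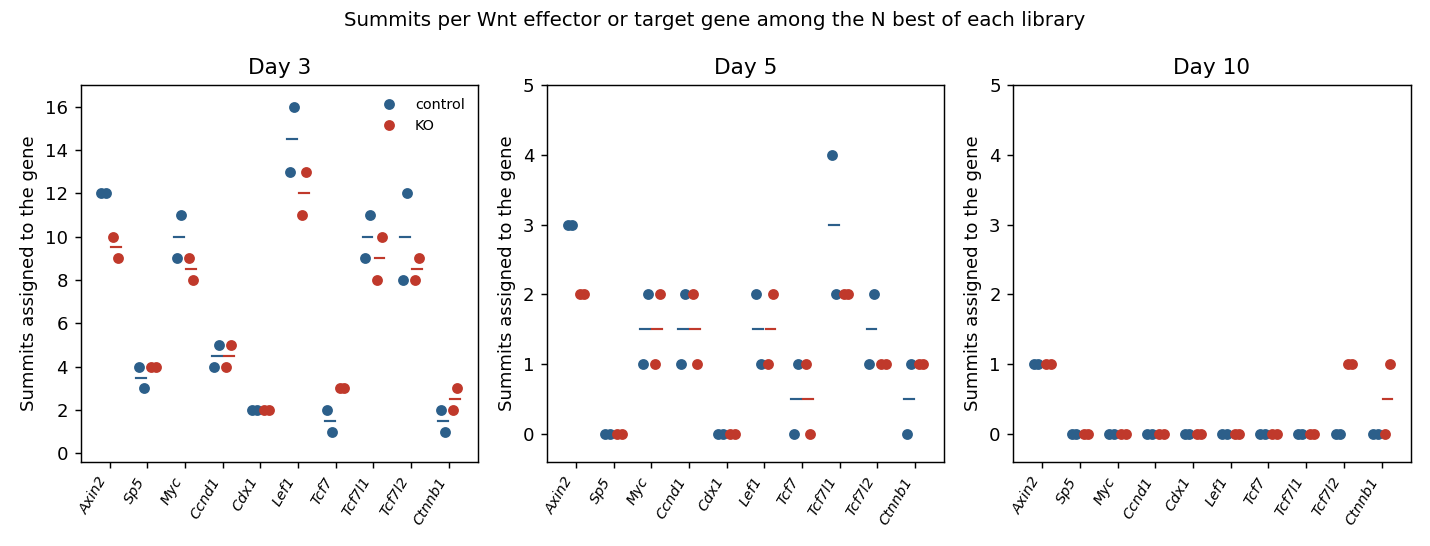
Number of summits assigned to each of the 10 genes among the N best summits of each library (y axis, count) at days 3, 5 and 10, with 1 point per library and the mean of 2 libraries as a bar, control in blue and KO in red. At day 3 Axin2 has 12 and 12 summits in the control and 10 and 9 in the KO, and at day 10 most genes have 0.

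Over the 3 days together, 5 members had fewer summits in the KO, 3 had more and 2 were equal. Of all 18845 genes, 7008 had fewer, 6755 more and 5082 an equal number. The median difference was -0.167 summits a library over the members against 0 over all genes. Axin2, the feedback scaffold of the destruction complex, differed most. It had 10 and 9 summits in the KO and 12 and 12 in the control at day 3, 2 and 2 against 3 and 3 at day 5, and 1 in each of the 4 libraries at day 10. The KO counts lay below the control counts at days 3 and 5. The share of all genes with this order is not given, and Axin2 was picked as the largest difference of 10. The difference was -1.17 summits a library (p = 0.0556, exact two-sided permutation of the genotype within days; adjusted p = 1, Benjamini-Hochberg over 18845 genes). With all summits in place of the N best, the Axin2 difference was -0.667 (p = 0.583, exact permutation), and without control day 5 replicate 1 it was -2 (p = 0.0556, exact permutation). Leaving out KO day 10 replicate 1 gave -1.33 (p = 0.0278, exact permutation), the one setting under an unadjusted 0.05. Of all genes, 47 (0.249%) had an unadjusted p under 0.05 and 0% passed after adjustment. Among the members 0 of 10 were under 0.05 before or after adjustment. The test could hardly call a gene, since its smallest p is 0.00926 and 3490 genes would have had to share it. The labels do not say that the 2 libraries of a group were separate differentiations, so p-values measure only the spread between these libraries.

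The regions themselves gave more detail. A region was KO-only where the KO libraries both held a summit and the control libraries both lacked one, control-only where the reverse held, and reproducible where both libraries of at least 1 genotype held one. At day 3, 68 member regions were reproducible, and 39 of them (57.4%, against 62.1% of all) had a summit in all 4 libraries. KO-only regions numbered 5 (7.35%), beside 9.75% of all reproducible regions. Control-only regions numbered 8 (11.8%), beside 9.59%. Both shares are near the background. All 13 lay more than 1 kb from a gene end, where 57 of the 68 were and where 12.1% of all regions were KO-only and 12.1% control-only. The 8 control-only regions belonged to Axin2 (3), Lef1 (2), Tcf7l2 (2) and Myc (1), and the 5 KO-only regions to Axin2, Lef1, Tcf7, Tcf7l2 and Sp5 (1 each).

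At day 5, 11 member regions were reproducible at the smaller N. KO-only regions numbered 0, beside 12.1% of all, and control-only regions 1 (9.09%), beside 7.95%. At day 10, 2 were reproducible, with 1 KO-only beside 9.88% of all and 0 control-only beside 11.7%. Counts at day 5 rested on control day 5 replicate 1, the shortest list of that day. Without it the control-only count was 20 and the KO-only count 6, with 1 control library deciding presence or absence. No share of all regions is given for this setting, so the 2 counts are not a result about the members.

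**Figure D2:**
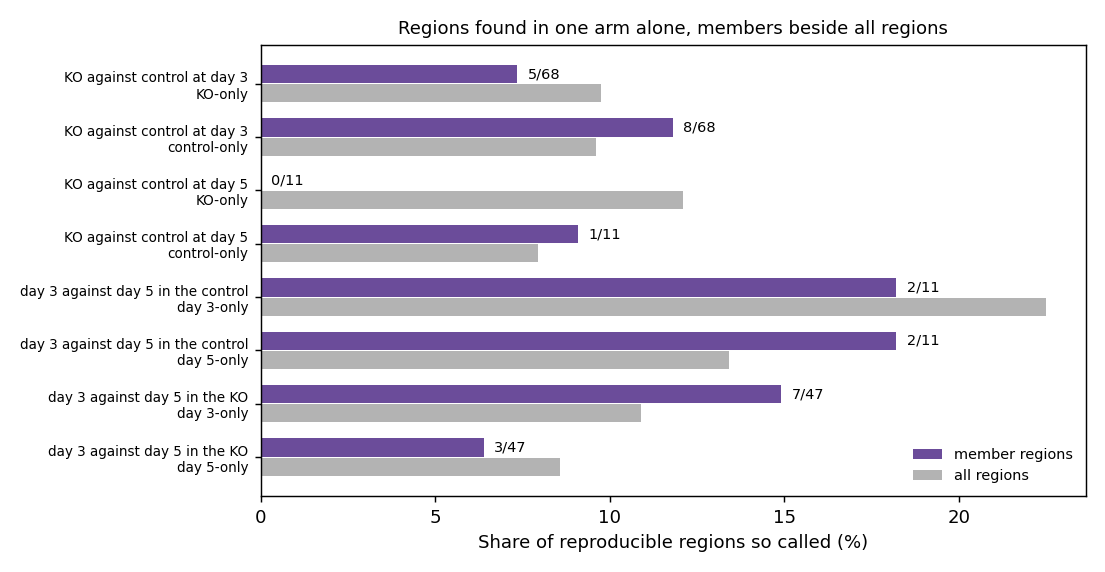
Share of reproducible regions (x axis, %) found in one group and not in the other, for the member regions (purple, with the count over the number reproducible) and for all regions (grey), between genotypes at days 3 and 5 and between days in each genotype. Member shares rest on 11 to 68 regions, and at day 3 the control-only share is 11.8% beside 9.59% and the KO-only share 7.35% beside 9.75%.

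Axin2 (chr11:108917828-108950783) held the one member region with a summit in all 4 control libraries of days 3 and 5 and in none of the 4 KO libraries. At chr11:108906878-108906914, centred at -13453 bp from the RefSeq start and outside any member body, control day 3 replicates 1 and 2 had summits at ranks 19176 and 21836. Control day 5 replicates 1 and 2 had them at ranks 6738 and 12307, within the neighbouring span chr11:108906910-108906951. No KO list held a summit there at any score, although the KO lists of day 5 were longer than those of the control. The nearest KO summit lay 2964 bp away at day 3 and 2931 bp at day 5. Over full lists, all 4 control libraries and none of 4 KO libraries had a summit in 1 of 32 member regions that had a summit in all 4 libraries of at least 1 genotype, beside 0.228% of all such regions (69 of 30236). With N divided by 2 the region was no longer called at day 5.

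Axin2 had 2 further control-only regions at day 3. They lay at chr11:108897820-108897928, at places 49.2% and 54.1% of the control lists (0% is the highest score of a list and 100% the lowest), and inside the body at chr11:108943943-108943988, at 57% and 58%. The latter had a summit in KO day 5 replicate 1, at 73.7%. The one KO-only Axin2 region, chr11:109030617-109030689, stood low in the KO lists, at 76.9% and 79.1%, and 79834 bp beyond the gene.

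The promoter region of Axin2 was open in every library of days 3 and 5. Its summits lay at chr11:108920319-108920570, reaching into the stretch printed above, and ranked from 2572 to 7055 in these 8 libraries. Of the day 10 lists, control replicate 1 held it at rank 4725. Another Axin2 region, chr11:109011750-109011913, lies 60967 bp beyond the gene end and had a summit in 12 of 12 libraries, ranked 26 to 53 in each. A summit ranked this high in every list was not checked against a list of regions prone to artefact signal, so its link to Axin2 was not tested.

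To set the strength of shared regions side by side, the regions with a summit in all 4 full lists of a day were ranked by score within each library. The place of a region is given as a percentage of the shared regions, with 0% the best score. Such a place compares order only, because scores are not comparable between libraries, and this view was added after the calls had been seen. At day 3 there were 32809 shared regions, 40 of them at members. Both control libraries were nearer the top than both KO libraries in 17 member regions (42.5%), beside 24.5% of all shared regions. Both KO libraries were nearer the top in 6 (15%), beside 25.8% of all. The places of the other 17 overlapped. The median difference, KO minus control, was 4.53 points over the members and -0.23 over all, small beside the SD of single regions, 16.1 and 15.8 points. The 17 came from 8 genes, with 4 of 5 shared regions at Axin2, 3 of 5 at Tcf7l2, 3 of 8 at Lef1, 2 of 2 at Cdx1, 2 of 4 at Ccnd1, and 1 each at Sp5, Tcf7l1 and Myc. Merging at 100 bp left 27 member regions, with 9 (33.3%) nearer the top in the control beside 24.4% of all.

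At day 5 only 8 of 10762 shared regions were at members. Both control libraries were nearer the top in 2 (25%, beside 19.4% of all) and both KO libraries in 1 (12.5%, beside 20.2%).

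**Figure D3:**
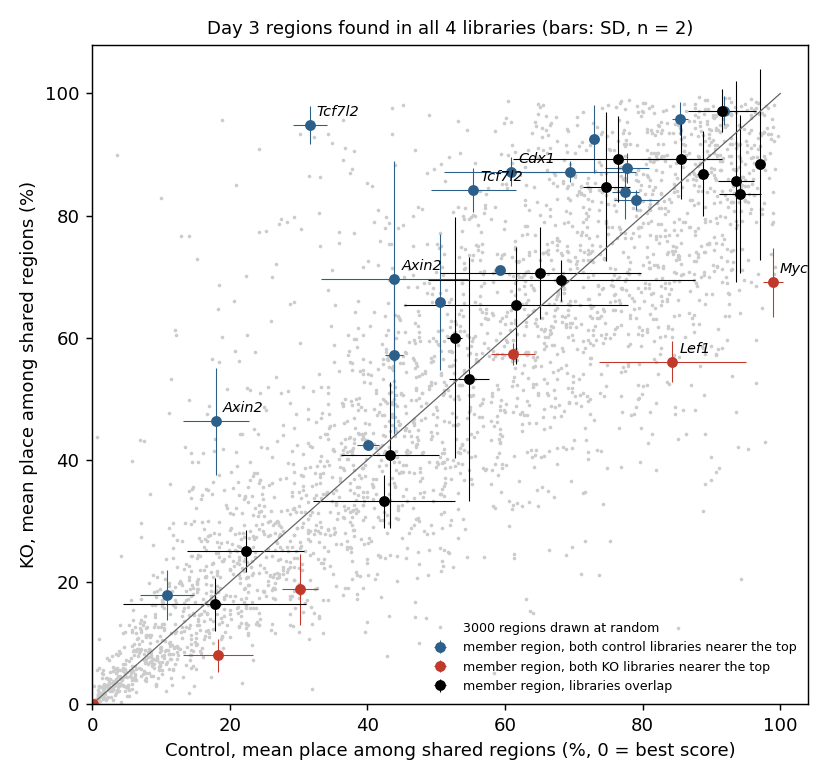
Mean place among the regions found in all 4 day 3 libraries (%, 0 is the best score) in the control (x axis) and the KO (y axis), with bars for the SD of 2 libraries. Member regions are coloured by which libraries stood nearer the top, 3000 of all regions drawn at random are grey, and the Tcf7l2 region at 31.6% in the control and 94.9% in the KO lies farthest from the diagonal among the member regions.

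Axin2 carried several of these differences. At chr11:108909779-108909912, -10504 bp from the start, the KO places were 52.5% and 40.1% and the control places 21.4% and 14.6%, 46.3% ± 8.75 against 18% ± 4.8 (SD, n = 2). At chr11:108911100-108911152 they were 83.2% and 55.9% against 36.3% and 51.4%. The promoter region stood at 20.8% and 15% in the KO against 13.7% and 8.16% in the control at day 3. At day 5 it stood at 43.4% and 48.5% against 22.2% and 29.5%, again with the control nearer the top. These upstream regions and the promoter thus shared a direction at day 3, and the promoter kept it at day 5. The nearest libraries of day 3 were close at chr11:108911100-108911152 (55.9% in the KO, 51.4% in the control) and at the promoter (15% and 13.7%). The region at -10504 bp did not. At day 5 it had summits in both KO libraries, at ranks 29030 and 23257 (60% and 55.2% of their lists), and in control replicate 2 at rank 30523 (89.7%), with none in the shorter list of control replicate 1. The region at chr11:108911100-108911156 did not keep its order either. Its day 5 summits stood at 73.4% and 41.7% of the KO lists and at 62% of the list of control replicate 2, with none in control replicate 1.

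Tcf7l2 (chr19:55741797-55933659), the Tcf family member with the longest body here, had the member region with the largest shift. At chr19:55700444-55700609, -41284 bp from the start, the KO places at day 3 were 97.1% and 92.8% and the control places 29.8% and 33.3%. The difference, 63.4 points between 94.9% ± 3.1 and 31.6% ± 2.48 (SD, n = 2), stood at percentile 99.8 of all shared regions. The 4 libraries did not overlap. Among the shared regions this region stood in the upper part in the control and near the bottom in the KO. In the full lists of day 3 it stood at 19.2% and 21.3% in the control and at 82.7% and 75.8% in the KO. The day 3 order was not seen at day 5, when the region was found in KO replicate 1, at rank 35020 or 72.4% of its list, and in control replicate 2, at rank 30397 or 89.3% of a shorter list, and not in the other two libraries. In the control it was also one of 2 member regions called day 3-only.

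A shift of 28.7 points was found inside the body of Tcf7l2, at chr19:55792645-55792722, with KO places of 81.7% and 86.7% and control places of 51% and 59.8%. Control-only summits lay at chr19:55722537-55722591, at 90.1% and 79.7% of the control lists, and at chr19:55732734-55732736, at 52% and 61%. Between them, chr19:55729519-55729795 had a summit in all 4 KO libraries of days 3 and 5, at 62.5% to 92.8%, and was not called in any comparison. Of the control libraries, only day 3 replicate 2 had one, at 74.4%, between the KO places of that day (69.3% and 92.8%). The KO ranks of day 5, 30262 and 35179, lie beyond the 14519 summits of control replicate 1, where such a summit was not detectable. The share of all regions with this pattern is not given. The KO-only region of day 3, chr19:55895550-55895593, lay 250 bp from an internal RefSeq start, with a control summit 565 bp away.

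The promoter region of Tcf7l2, chr19:55741554-55741708, did not follow the distal regions. Its places at day 3 were 13.4% and 19.5% in the KO against 27.2% and 8.43% in the control, which overlapped. It had a summit in all 8 libraries of days 3 and 5 and in both control libraries of day 10, at ranks 8170 and 6311. A region 1231 bp inside the body, chr19:55742964-55743119, had a summit in all 4 KO libraries and none of 4 control libraries, as did 3.17% of all regions that had a summit in all 4 libraries of at least 1 genotype. Its ranks of 54822, 33157, 35651 and 32907 all lie beyond the 14519 summits of control day 5 replicate 1, so its absence there was not detectable at this depth. The other 3 control lists, of 53473, 54100 and 34040 summits, also lacked it and were long enough to hold some of these ranks. The region called KO-only at day 10, chr19:55770855-55770933, had control summits at 0 and 100 bp in the full lists, at ranks 6208 and 5243 beyond N.

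**Figure D4:**
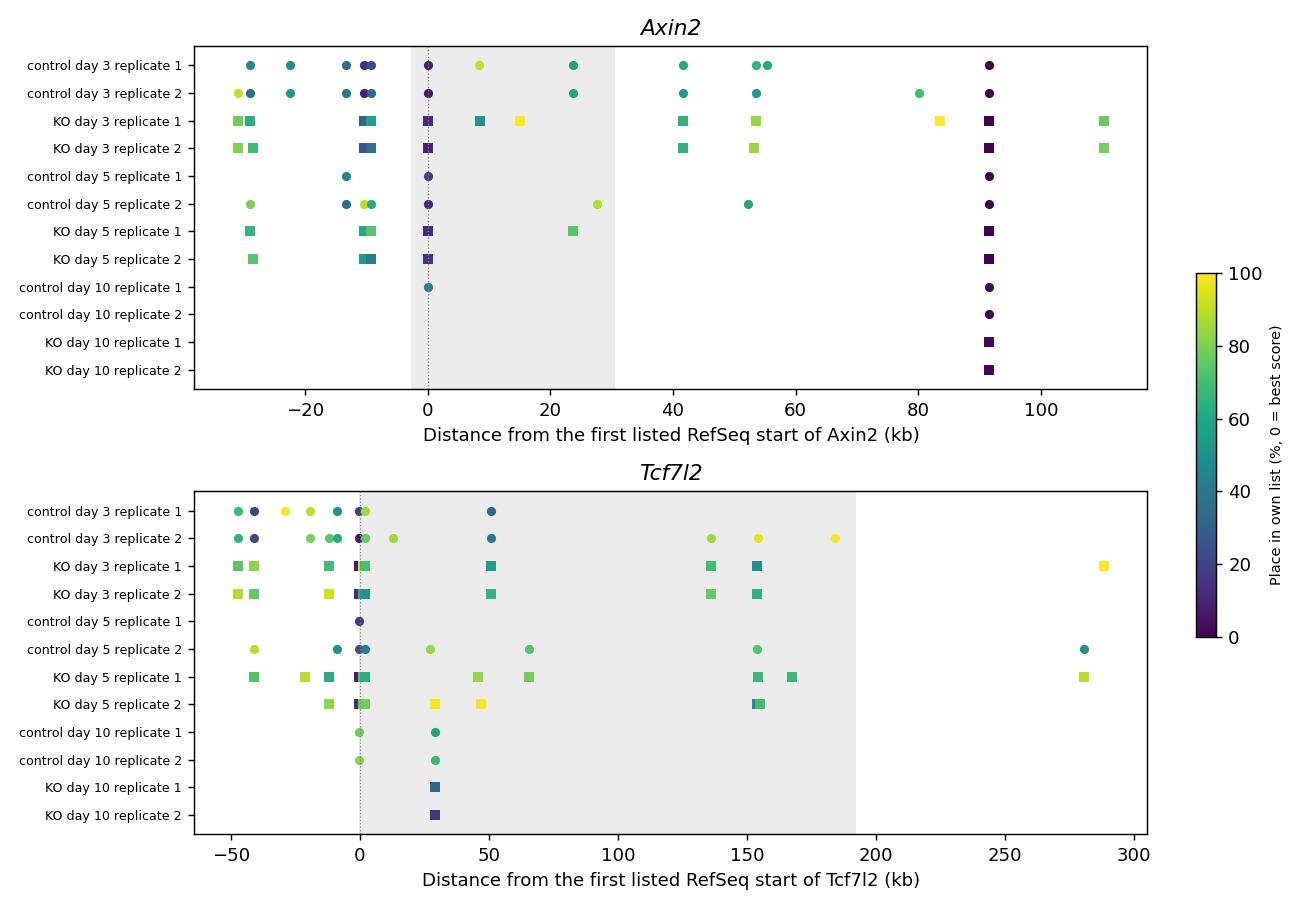
Member regions of Axin2 and Tcf7l2 by distance from the RefSeq start (x axis, kb), with 1 row per library, circles for the control, squares for the KO, grey for the gene body and colour for the place of the summit in its own list (%, dark is the best score). Upstream of the Axin2 start a column of circles in the 4 control libraries of days 3 and 5 has no square, and the promoter columns are filled in all 8.

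Lef1 (chr3:131110297-131224357), whose protein acts mainly as an activator with β-catenin, showed shifts in both directions. Its promoter region, chr3:131110101-131110443, had summits in all 8 libraries of days 3 and 5, at ranks 13056 to 24196, spread over the capitals of the printed stretch and beyond. Among shared regions of day 3 it stood at 66.3% and 48% in the KO and 43% and 44.9% in the control, and at day 5 the places overlapped (90.7% and 81.5% against 94.2% and 84.3%). At chr3:131102354-131102480, -7880 bp from the start, the order was the reverse, with KO places of 53.7% and 58.4% and control places of 76.7% and 91.8%. The neighbouring calls at -24978 bp (KO-only) and -25342 bp (control-only) lay 266 bp apart and merged into 1 region of 7 libraries over full lists, so they differ in where the summit was placed and not in whether there was one. A further control-only region, chr3:131155803-131155829, lay inside the body, with a KO summit 766 bp away.

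Tcf7 (chr11:52246527-52283383) and Tcf7l1 (chr6:72626371-72789045), the latter known mainly as a repressor in embryonic stem cells, gave few calls. Tcf7 had 1 KO-only region at day 3, chr11:52286522-52286522, -3508 bp from the start, at places 63.4% and 72.5%. Its promoter region, chr11:52283289-52283350, had a summit in 6 of the 8 libraries of days 3 and 5, at ranks 12355 to 34391, and was missed in KO day 3 replicate 2 and control day 5 replicate 1. KO day 3 replicate 2 instead had a summit at chr11:52282545, 50 bp from the downstream RefSeq start, at rank 27913. Tcf7l1 had no region called between genotypes.

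At day 3, 3 of 7 shared regions of Tcf7l1 stood nearer the top in the KO and 1 of 7 in the control, beside 25.8% and 24.5% of all shared regions. With 7 regions, this cannot be told apart from those shares. Among the 3, the places at chr6:72795013-72795300 nearly met, at 58.7% in the KO and 59% in the control. The promoter region of Tcf7l1, at chr6:72789330-72789573, stood at 14.7% and 22.9% in the KO and 28.3% and 32.1% in the control. At day 5 the order turned, with 52.5% and 33.6% in the KO and 22.6% and 19.5% in the control. A body region at chr6:72677659-72677721 stood at 9.91% and 6.12% against 21.9% and 14.7% at day 3 and overlapped at day 5. The promoter was also open at day 10 in both control libraries, at ranks 7326 and 4794, and had no summit in the KO lists of 4028 and 4755, which are shorter than those ranks.

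Ctnnb1 (chr9:120933400-120960507), the gene of β-catenin, had 4 regions. The promoter region, chr9:120933281-120933447, had a summit in 7 of 8 libraries of days 3 and 5, missing control day 5 replicate 1, and in 3 of 4 at day 10. Its day 3 places were 36.3% and 30.1% in the KO against 35.1% and 49.6% in the control, which overlapped. No Ctnnb1 region was called in any of the 5 comparisons.

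Sp5 (chr2:70474923-70477726), a zinc-finger factor induced by Wnt and known to damp Tcf/Lef targets, had 4 and 4 summits in the KO and 4 and 3 in the control at day 3. Its promoter region, chr2:70474955-70475114, overlapped between genotypes, with 71.8% and 67% against 54.5% and 82%. The region at chr2:70471974-70472128, -2872 bp from the start, stood at 73.7% and 58% in the KO and 50.3% and 50.8% in the control. A KO-only summit pair lay inside the gene at chr2:70476089-70476159, at 87.9% and 89.1%, near the bottom of both lists.

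At day 5 the full KO lists held 3 and 3 summits near Sp5 and the control lists 0 and 0. The KO summits ranked 38554 and 32776 at the promoter, 35212 and 30928 upstream and 35368 and 30705 in the body. All 6 ranks lie beyond the 14519 summits of control replicate 1, where a summit of this rank was not detectable. The 3 of KO replicate 1 also lie beyond the 34040 summits of control replicate 2, while the 3 of KO replicate 2 lie inside that length, near its end. Among the N best summits of day 5, Sp5 had 0 in all 4 libraries.

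**Figure D5:**
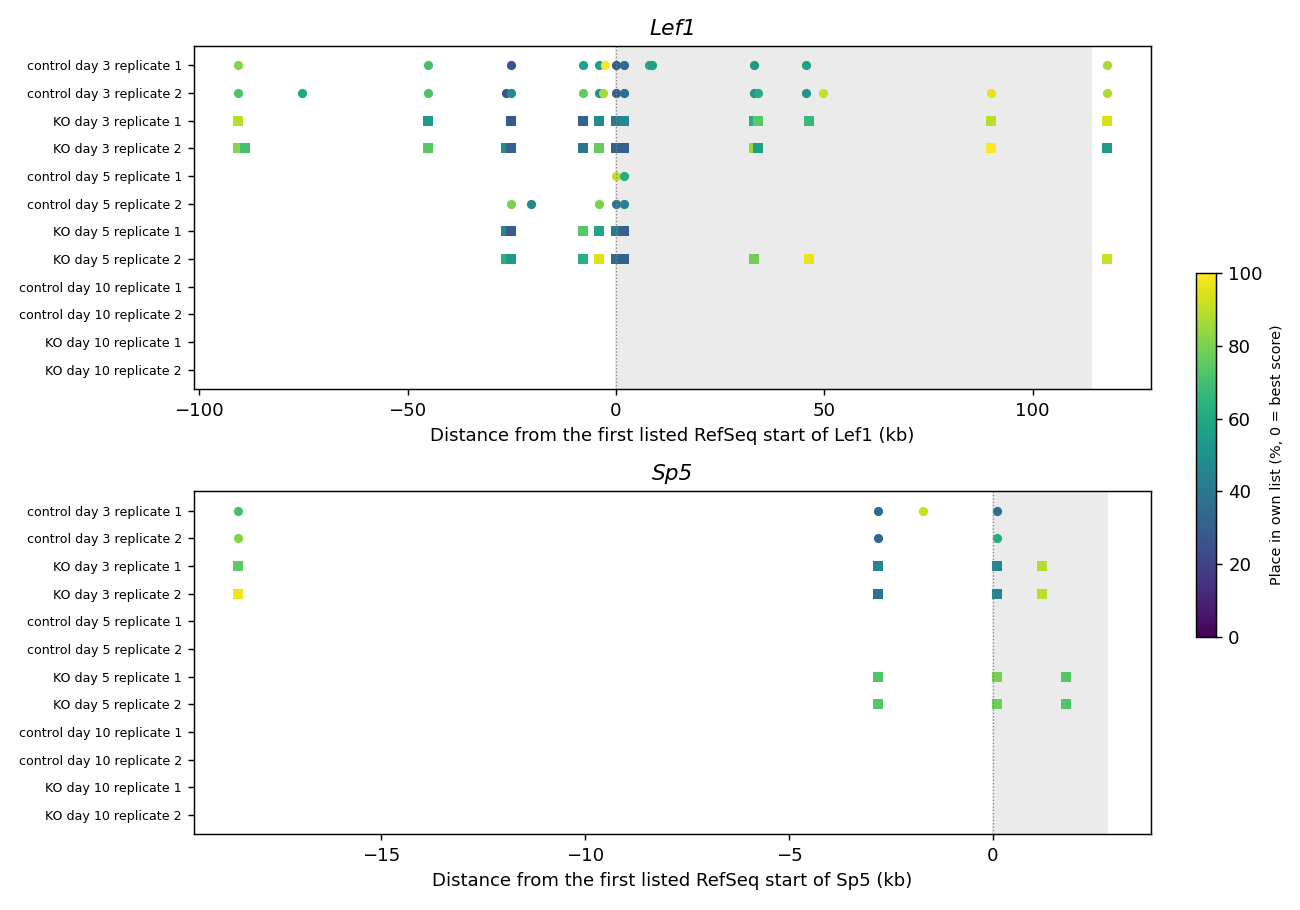
Member regions of Lef1 and Sp5 by distance from the RefSeq start (x axis, kb), drawn as in the map of Axin2 and Tcf7l2. The Lef1 promoter is filled in all 8 libraries of days 3 and 5, and Sp5 has squares without circles at day 5, at low places of the longer KO lists.

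Myc (chr15:61985341-61990361), the growth regulator, had 1 control-only region at day 3, chr15:61889241-61889291, which lies 96050 bp from the gene. The control places there were 33.4% and 44.1% and the nearest KO summit was 51114 bp away. Over the gene, the promoter-side region chr15:61985236-61985502 stood at 22.6% and 27.5% in the KO and 28.3% and 16.3% in the control, which overlapped. At chr15:62079376-62079600 the KO stood nearer the top, with 65.1% and 73.1% against 100% and 97.9%. At chr15:62086900-62087171 the control did, with 76.2% and 62.5% against 88.4% and 86%. Regions of opposite order thus lay within the same distal stretch of Myc.

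Ccnd1 (chr7:144929931-144939831), which encodes cyclin D1, had no region called in any comparison. Its gene-end region, chr7:144939775-144939845, stood at 81.5% and 83.8% in the KO and 76.9% and 81.4% in the control, with less than 1 point between the nearest libraries. The distal region chr7:145030807-145031035 had a summit in all 8 libraries of days 3 and 5, at ranks 9011 to 14901. Cdx1 (chr18:61018862-61036199), a homeobox gene of the posterior body axis, had both its shared regions nearer the top in the control at day 3. At chr18:61034966-61034996 the places were 71.4% and 70.9% in the KO against 59.4% and 59% in the control. At chr18:61036230-61036357 they were 85.6% and 88.9% against 54% and 67.8%. Both lie within 1 kb of the gene end, and Cdx1 had 0 summits in the control lists of day 5 and 2 and 0 in those of the KO.

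Between days, the control had 11 reproducible member regions at N of 14519, of which 2 were day 3-only (18.2%, beside 22.5% of all) and 2 day 5-only (18.2%, beside 13.4%). The day 3-only pair were the Axin2 region at -10537 bp and the Tcf7l2 region at -41223 bp. The day 5-only pair were the Lef1 promoter and the Axin2 region at -13419 bp, each of which had a day 3 summit in the full lists within 33 bp. The day 3-only pair had a day 5 summit within 92 bp and 20 bp in 1 of the 2 full lists. With absence judged on full lists, both counts were therefore 0.

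In the KO, 47 member regions were reproducible at N of 42129. Day 3-only regions numbered 7 (14.9%, beside 10.9% of all) and comprised 2 at Tcf7l2 and 1 each at Lef1, Tcf7, Axin2, Myc and Cdx1. Day 5-only regions numbered 3 (6.38%, beside 8.58%), with 2 in the body of Tcf7l1 and 1 in Sp5. The Tcf7l1 regions, chr6:72711672-72711871 and chr6:72761801-72761962, also had summits in control day 5 replicate 2, at 85.2% and 98.8% of that list.

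Of 28 other genes of the pathway, 0 had an unadjusted p under 0.05 in the count of summits (exact permutation). Among 11 transduction genes 4 had more summits in the KO and 2 fewer, among 9 nuclear cofactors 4 more and 4 fewer, and among 8 further targets 2 more and 4 fewer. Of all 18845 genes, 6755 had more, 7008 fewer and 5082 an equal number. The genes with 3 or more called regions in a comparison were Bcl9l, Tle3, Lrp5 and Tle4. Shares for single genes are not given. Of all reproducible regions, 9.75% were KO-only and 9.59% control-only at day 3, and 7.95% were control-only at day 5. Between days, 13.4% were day 5-only in the control, and 10.9% were day 3-only and 8.58% day 5-only in the KO. Bcl9l, a β-catenin coactivator, had 3 KO-only regions at day 3 and 8 and 10 summits in the KO against 4 and 5 in the control (p over the 3 days 0.33, exact permutation). Tle3, a Groucho corepressor of Tcf proteins, had 4 control-only regions at day 5. Among the N best summits of day 5 it had 2 and 2 in the KO against 5 and 7 in the control (p over the 3 days 0.0556, exact permutation). Over the full lists of day 5 this order was not seen, with 12 and 12 in the KO against 5 and 12 in the control. In the control, 3 regions of Tle3 were also day 5-only. Lrp5, a Wnt coreceptor, had 3 called regions at day 3 (1 KO-only, 2 control-only), and Tle4, another Groucho corepressor, had 1 day 3-only and 2 day 5-only regions in the KO. The adjusted p-values of these 4 genes were 1.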

How the data were processed

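ATAC-seq cuts accessible DNA with Tn5 transposase. Reads were handled on mm10 by the authors with Bowtie2 2.2.4 and with MACS2, whose version is not stated, per the submitters' processing notes. One list of summits was deposited for each library, so replicates were not pooled. The deposited score of a summit is a −log10 value, and whether of a p-value or a q-value is not given in the sources used here. Read filters, Tn5 shifting and thresholds are also not given there, and no list of artefact-prone regions was applied.

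From these lists, summits were assigned with a RefSeq table (GRCm38.p6, 21631 protein-coding genes, 100 kb), cut to the N best per library, merged at 250 bp and counted per genotype in Python 3.11.15 with numpy 2.4.6. Scores served only to order summits within a list. Summits per gene were compared by two-sided exact permutation with Benjamini-Hochberg adjustment over all 18845 genes with a summit, at a threshold of 0.05. Region calls have no test. The code for the calls was tested on the day 3 lists with known shared regions removed from the control, and that for the gene test on simulated counts. Alternatives changed the merging distance, N, the rule of absence, the assignment distance, the replicate block, the days and each library in turn. The text covers all 10 members, the promoter, most widely found and called regions of each, and other pathway genes with an unadjusted p under 0.05 or 3 called regions. Members, lists and settings were chosen with earlier results of these data known, and the ranking of shared regions was added after seeing the calls.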

Additional observations from a re-analysis of the deposited data

How the results depend on the processing

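Summit lists without read counts limit these results, since a missing summit can lie just under a threshold, and every member count rests on 2 libraries a group. Day 3 KO-only regions (5) fell to 2 with N divided by 2 and ran from 7 to 14 with 1 library left out, and control-only regions (8) ran from 10 to 18. A rise is built into leaving a library out, because 1 library then decides presence or absence. For the calls, shares of all regions under the changed settings are not given, so the changed counts are not results about the members. At day 5, KO-only regions (0) numbered 1 when merged at 100 bp, 1 with N divided by 2, 12 with all summits and 1 to 6 with a library left out. Control-only regions (1) numbered 0 with N divided by 2, 2 with all summits and 2 to 20 with a library left out, the 20 without control replicate 1. At day 10, KO-only regions (1) numbered 0 with all summits or with absence judged on full lists and 1 to 2 with a library left out, and control-only regions (0) numbered 2 with all summits. In the control, day 3-only regions (2) numbered 0 with N divided by 2 or absence on full lists, 27 with all summits and 3 to 16 with a library left out. Day 5-only regions (2) numbered 1 when merged at 100 bp, with N divided by 2 and with all summits, 0 with absence on full lists and 2 to 22 with a library left out. In the KO, day 3-only regions (7) numbered 2 with N divided by 2, 18 with all summits and 9 to 14 with a library left out, and day 5-only regions (3) numbered 0 with N divided by 2 and 6 to 16 with a library left out. Of the shared regions of day 3, the 6 nearer the top in the KO became 3 when merged at 100 bp and 9 to 12 with a library left out. These were 11.1% and 20.8% to 27.3% of member regions, beside 26% and 37.5% to 39.4% of all. The 17 nearer in the control became 9 and 22 to 27. These were 33.3% and 50% to 59%, beside 24.4% and 35.4% to 37.9% of all. At day 5 the 1 nearer in the KO became 1 to 10 and the 2 nearer in the control became 0 when merged at 100 bp and 2 to 9. With a library left out, these were 12.5% to 41.7% and 25% to 50% of member regions. Of all regions, 30.3% to 43.2% and 28.2% to 44.3% were so placed. The sign of the summit difference turned for Lef1 with N divided by 2 (0.167) and with all summits (0.667), for Tcf7l1 with all summits (1), for Tcf7l2 with all summits (1.17) and without control day 3 replicate 2 (range -1.17 to 0.33 with a library left out), and for Ctnnb1 without control day 5 replicate 1 (range -0.167 to 0.833). The cause was not tested. Replicate numbers were not treated as pairs in the main test. Same-numbered libraries had deviations correlated at -0.0238, -0.0229 and -0.0362 at days 3, 5 and 10. With 2 libraries a group, this cannot show whether they shared a differentiation, and the labels do not say. With the replicate block, 9 genes had an unadjusted p under 0.05 in place of 47 and 0 of 10 members did, where the smallest p is 0.0312.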
